A study of Zea mays with 6 samples.

Results

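In the maize shoot apex, 50 of the 39656 annotated genes reached at least 10 RPM (reads per 1000000 uniquely aligned reads) in both libraries of the center zone while staying at or below 1.0 RPM in every one of 4 leaf primordium libraries. These thresholds, applied to the measured levels themselves, define the set described here, so the difference between center zone and leaf is how the genes were found and is given as a description without a test. A further 9 genes were left out by name, of which 8 could be looked up and 3 meet both thresholds. The remaining one was not analysed here. The 50 genes are 0.126% of all genes and 0.415% of the 12036 genes that reached 10 RPM in both center zone libraries.

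The samples were 2 center zone libraries of the shoot apex, 2 libraries of the adaxial side of leaf primordia 2 and 3, and 2 of the abaxial side of the same primordia. All 3 groups came from wild-type B73 seedlings, an inbred line, at 14 d of age. Cells were cut from sections by laser microdissection, each replicate pooled cells of several apices, and the small amounts of RNA were amplified before sequencing. Amplification captures the 3′ end of transcripts, so an RPM value is not divided by gene length. How well levels of different genes compare with each other was not tested.

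The shoot apical meristem at the tip of the plant keeps a small pool of stem cells and passes their descendants outward, where they are taken up into leaf primordia. The center of the meristem and the young leaf that arises at its flank therefore share a recent origin but follow different programs. The KNOX homeobox family of transcription factors, with knotted1 (kn1) as the founding member, includes genes known for being active in the meristem and off in the cells that become a leaf. The leaf in turn takes on an upper, adaxial side that faces the meristem and a lower, abaxial side that faces away from it.

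Libraries held between 14718269 and 25898155 counted reads, fewest in the abaxial pair. Defining markers matched the labels of the dissected domains in part. In the center zone, 6 of 6 meristem markers, 5 of them KNOX genes, were higher. The 5 KNOX genes summed to 1354 and 1145 RPM there, against 17.5 and 13.6 RPM adaxially and 17.0 and 10.2 RPM abaxially. Summed KANADI markers of the abaxial side lay at 3.62 and 1.93 RPM on the adaxial side, against 83.7 and 80.0 RPM on the abaxial side. No single KANADI gene passed between the sides (edgeR adjusted p 0.125 to 0.298). Of 3 adaxial markers, IG1 passed, at 201.0 and 181.8 RPM adaxially against 9.7 and 10.9 RPM abaxially (edgeR adjusted p 0.00625). The marker rld1 did not pass, at 475.1 and 470.6 RPM against 384.0 and 374.9 RPM, and phb1 had at most 0.4 RPM in any library. YABBY genes, which mark leaf primordia, summed to 88.7 RPM in center zone replicate 1 and 22.0 RPM in replicate 2, against 470 to 564 RPM in leaf. Most of the center zone sum was yabby15, at 78.8 and 16.3 RPM, while yab9, yab10 and yab14 had 0.9 to 2.6 RPM there. Of 6 YABBY genes, only these last 3 passed as lower in the center zone. The summed vasculature list was likewise higher in center zone replicate 1, at 84.5 RPM against 32.6 RPM in replicate 2, while the leaf libraries held 5.93 to 22.4 RPM. Most of this center zone sum was BM1 (55.4 and 30.7 RPM) and, in replicate 1, DOF22 (24.7 and 0.8 RPM). BM1 passed as higher in the center zone (edgeR adjusted p 0.000826) and DOF22 did not pass. Of 3 epidermis markers, 2 passed as lower in the center zone and 0 as higher.

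Most members of the set were genes of moderate abundance. Their mean center zone level had a median of 22.9 RPM and ran from 10.6 to 106 RPM, whereas the median of the 12036 genes at 10 RPM or more was 41.5 RPM. Only 5 members averaged 50 RPM or more, 24 lay between 20 and 50 RPM, and 21 lay below 20 RPM. The most abundant member took rank 2119 among all genes in the center zone and the least abundant rank 12564, with 6 members above the median of the larger class. Because tissue was measured in bulk, many cells with little transcript and few cells with much cannot be told apart in any of these levels.

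Summed over all 50 genes, the center zone libraries held 1213 and 1450 RPM, the adaxial libraries 18.8 and 23.9 RPM, and the abaxial libraries 10.1 and 11.0 RPM. The mean center zone level of a member exceeded its mean over the 4 leaf libraries by a median of 79.7-fold and by at least 20.5-fold. Among the 12036 genes at 10 RPM or more the median ratio was 1.20, and 129 of them reached the lowest ratio of the set. The plot of all members by library shows this as a band without points between 1 and 10 RPM, which the thresholds themselves create.

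**Figure D1:**
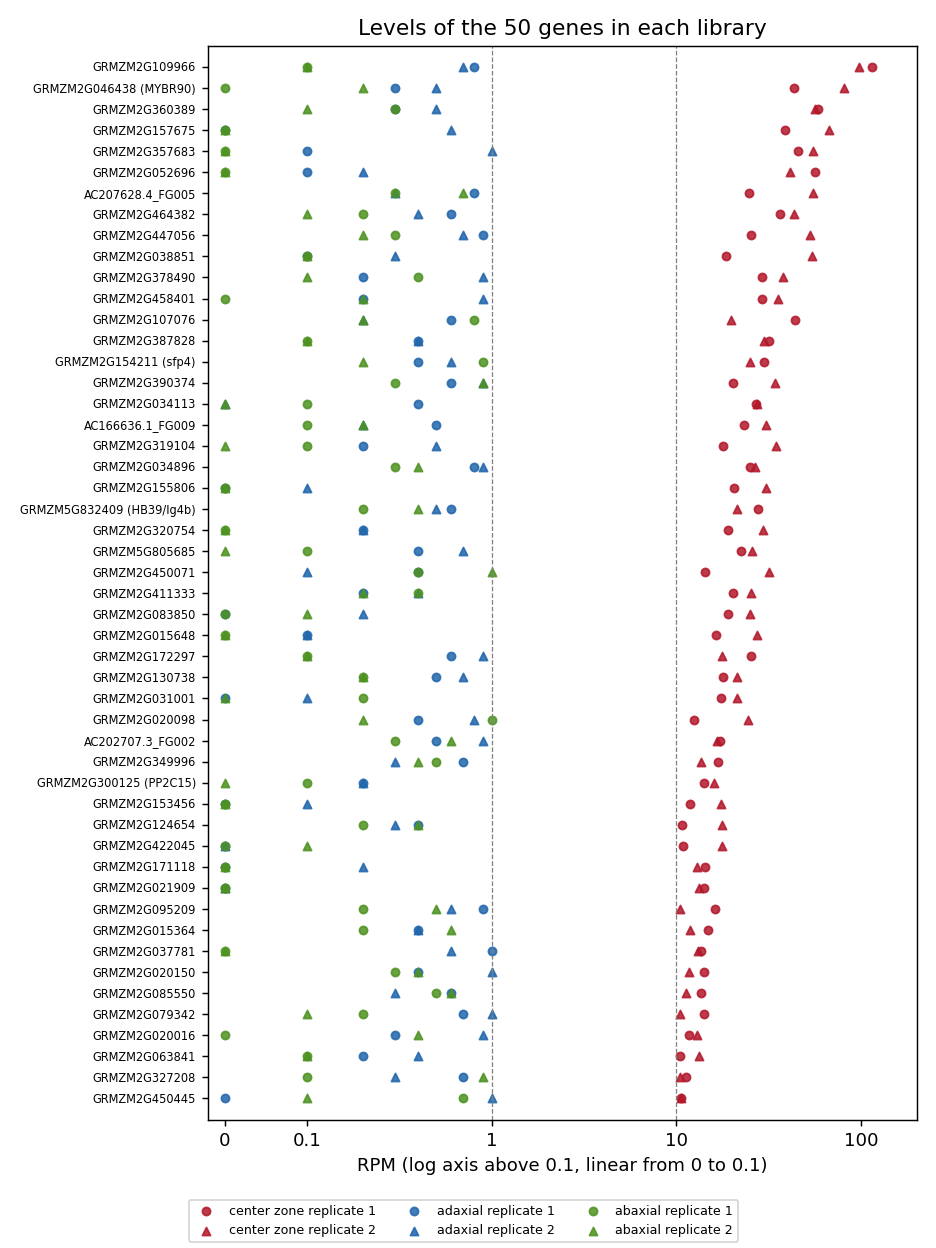
Levels of the 50 genes in each of the 6 libraries in RPM, on an axis that is logarithmic above 0.1 RPM and linear below, ordered by mean center zone level (highest on top); circles are replicate 1 and triangles replicate 2, and dashed lines mark the thresholds of 1 and 10 RPM. Center zone levels run from 10.5 to 114.4 RPM. In unrounded values the adaxial mean was above the abaxial mean for 40 of the 50 genes, while adaxial and abaxial points overlap or coincide in many rows.

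Of the 50 members, 4 carry a gene symbol, and 2 of these encode putative transcriptional regulators. MYBR90 (GRMZM2G046438, chromosome 5, 31901583 to 31906914, minus strand, B73 RefGen_V3) belongs to the MYB-related class of DNA-binding proteins and was the most abundant symbol-bearing member. It had 43.2 and 81.1 RPM in the center zone, against 0.3 and 0.5 RPM adaxially and 0.0 and 0.2 RPM abaxially. The center zone libraries lay far above all leaf libraries but differed from each other by 1.88-fold, with a mean of 62.2 ± 26.8 RPM (SD, n = 2), and the mean ratio to leaf was 260-fold, or 396-fold without adaxial replicate 2.

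Most other genes with an MYBR symbol did not pass a test for a higher center zone level. Of 22 such genes outside the set, 16 were expressed at a mean of 2 RPM or more in a domain and could be tested between the center zone and the mean of both leaf sides. At an adjusted p under 0.01 in edgeR's quasi-likelihood test, 3 were higher and 2 lower in the center zone, where 10.9% of the 17993 genes tested were higher and 7.83% lower. MYBR26 rose, at 123.2 and 154.8 RPM in the center zone, against 40.1 and 47.5 RPM adaxially and 44.6 and 47.9 RPM abaxially (log2 fold change 1.49, SE 0.178, edgeR adjusted p 0.00125). MYBR101 (log2 fold change 1.71, SE 0.220) and MYBR88 (0.92, SE 0.187) rose as well, with leaf levels of 22.0 to 30.1 RPM. MYBR106, at 70.9 and 76.5 RPM in the center zone and 69.2 to 93.9 RPM in leaf, did not pass (edgeR adjusted p 0.141). All 4 of these relatives had leaf levels above the center zone threshold of the set.

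The second regulator was lg4b, also listed as HB39 (GRMZM5G832409, chromosome 6, 24181660 to 24193140, plus strand), a KNOX homeobox gene. It had 27.7 and 21.4 RPM in the center zone, against 0.6 and 0.5 RPM adaxially and 0.2 and 0.4 RPM abaxially, a mean of 24.6 ± 4.44 RPM (SD, n = 2) and a ratio of 57.0. Both adaxial libraries lay above both abaxial ones, with means of 0.547 and 0.315 RPM (28 counts, against 10 in the shallower abaxial libraries). This difference did not pass (edgeR unadjusted p 0.1175).

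In the KNOX family most genes were higher in the center zone. Of 9 KNOX genes outside the set, 8 were tested, 7 were higher in the center zone and 0 lower, where 10.9% of all tested genes were higher and 7.83% lower. Far the most abundant was kn1, at 1109.9 and 971.1 RPM in the center zone, against 9.9 and 2.4 RPM adaxially and 2.7 and 1.2 RPM abaxially (log2 fold change 8.12, SE 0.623, edgeR adjusted p 0.00102). With over 1.0 RPM in all leaf libraries it falls outside the set even though its center zone level is higher than that of any member. The partner gene of the same name, lg4a, had a center zone level similar to that of lg4b, 20.5 and 22.0 RPM, with 0.8 and 1.5 RPM adaxially and 1.6 and 0.5 RPM abaxially (log2 fold change 4.14, SE 0.467, edgeR adjusted p 0.00109). Of the remaining KNOX genes, lg3 (3.61, SE 0.278) and knox4 (6.10, SE 0.567) rose as well.

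In leaf, lg3 leaned the other way from lg4b, at 2.5 and 4.3 RPM adaxially and 11.2 and 7.6 RPM abaxially. As for lg4b, this difference did not pass (edgeR adjusted p 0.329). A further KNOX gene, knox8, narrowly missed the set, since its center zone levels were 9.8 and 11.2 RPM with at most 0.4 RPM in leaf. Only knox7 among the tested KNOX genes did not pass, at 39.6 and 43.9 RPM in the center zone, against 31.6 and 28.4 RPM adaxially and 33.0 and 35.2 RPM abaxially (edgeR adjusted p 0.229).

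PP2C15 (GRMZM2G300125, chromosome 8, 147912922 to 147918179, plus strand) belongs to the protein phosphatases of type 2C, enzymes that remove phosphate groups from proteins and are known in plants for damping abscisic acid signaling, though not every family member does so. It had 14.1 and 16.1 RPM in the center zone, against 0.2 and 0.2 RPM adaxially and 0.1 and 0.0 RPM abaxially, a mean of 15.1 ± 1.41 RPM (SD, n = 2) and a ratio of 146. The center zone libraries nearly coincided and all leaf libraries were near 0, with 9 adaxial counts and 1 abaxial count.

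Among 23 other PP2C genes, 17 were tested, 2 were higher and 3 lower in the center zone, where 10.9% of all tested genes were higher and 7.83% lower. PP2C16 came closest to PP2C15, at 11.6 and 7.9 RPM in the center zone and at most 0.1 RPM in any leaf library (log2 fold change 7.16, SE 0.603, edgeR adjusted p 0.000348), and replicate 2 alone kept it out of the set. PP2C2 was the other higher gene (0.99, SE 0.200), while PP2C17, PP2C24 and PP2C28 were lower, by log2 changes of −1.97, −1.69 and −0.96. PP2C23, the most abundant of the family, had 184.0 and 176.2 RPM in the center zone and 82.1 to 164.7 RPM in leaf and did not pass (edgeR adjusted p 0.0937). These PP2C genes other than PP2C2 and PP2C23 were named after their values had been seen. By center zone level the rule also takes GRMZM2G166035, with the symbol PP2C, and PP2C21. At 133.2 and 97.2 RPM and at 56.4 and 64.2 RPM in the center zone, neither passed (edgeR adjusted p 0.183 and 0.1645).

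The fourth symbol, sfp4 (GRMZM2G154211, chromosome 1, 12351736 to 12357474, minus strand), had 29.9 and 25.1 RPM in the center zone, against 0.4 and 0.6 RPM adaxially and 0.9 and 0.2 RPM abaxially, a mean of 27.5 ± 3.35 RPM (SD, n = 2) and a ratio of 50.0. Here the adaxial and abaxial libraries overlapped. Of 6 other sfp genes, 4 were tested, 0 were higher and 1 was lower, where 10.9% of all tested genes were higher and 7.83% lower. The lower gene was sfp2, at 0.6 and 1.0 RPM in the center zone, against 8.0 and 5.4 RPM adaxially and 6.3 and 11.4 RPM abaxially (log2 fold change −3.39, SE 0.482, edgeR adjusted p 0.00237). The relative with the highest center zone level, sfp7, had 29.7 and 41.9 RPM there and 24.9 to 34.6 RPM in leaf (edgeR adjusted p 0.816). By center zone level the rule also takes sfp1 and sfp5, which did not pass (edgeR adjusted p 0.231 and 0.0192), and sfp3, which was not tested. The plot of the 4 families shows nearly all KNOX rows with center zone and leaf apart, and few such rows in the other 3 families, a difference between families that was not tested.

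**Figure D2:**
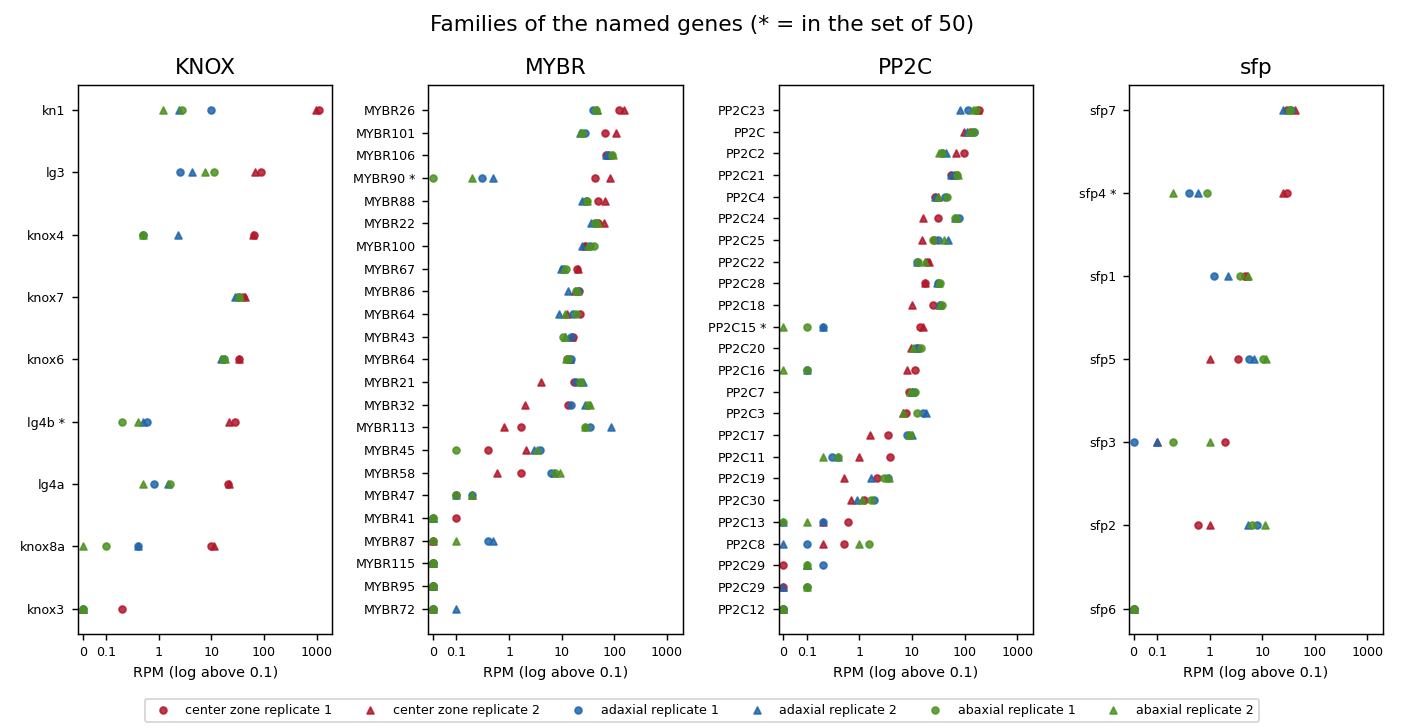
Levels in RPM of genes with a KNOX, MYBR, PP2C or sfp symbol in the 6 libraries, ordered by mean center zone level within a family; the axis is logarithmic above 0.1 RPM, circles are replicate 1, triangles are replicate 2, and an asterisk marks the member of the set. MYBR90, PP2C15 and sfp4 lie apart from most of their relatives, whereas lg4b lies among KNOX genes of which 7 of the 8 others tested were higher in the center zone; symbols shown more than once stand for more than one gene ID.

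The gene with the highest center zone level carried no symbol. GRMZM2G109966 (chromosome 9, 109739015 to 109740817, minus strand) had 114.4 and 98.0 RPM in the center zone, against 0.8 and 0.7 RPM adaxially and 0.1 and 0.1 RPM abaxially, a mean of 106 ± 11.6 RPM (SD, n = 2) and a ratio of 253. The order center zone, adaxial, abaxial held in every library. It overlaps GRMZM2G410443 on the opposite strand, which was listed at 0.3 and 0.0 RPM in the center zone and 0.0 RPM in leaf, and whether counting used the strand is not given in the sources used here.

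GRMZM2G360389 (chromosome 4, 141522853 to 141526357, plus strand) had 58.2 and 56.4 RPM in the center zone, against 0.3 and 0.5 RPM adaxially and 0.3 and 0.1 RPM abaxially, a mean of 57.3 ± 1.26 RPM (SD, n = 2) and a ratio of 192. Its center zone replicates agreed more closely than those of the other members among the 12 most abundant. GRMZM2G052696 (chromosome 4, 237146214 to 237146448, plus strand) had 56.2 and 41.4 RPM in the center zone, against 0.1 and 0.2 RPM adaxially and 0.0 and 0.0 RPM abaxially, with a ratio of 730. This model spans only 235 bp, the shortest in the set, and lies 269 bp before GRMZM2G351027 on the opposite strand, at 1.2 and 1.4 RPM in the center zone and 0.0 RPM in leaf.

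In GRMZM2G157675 and GRMZM2G357683 nearly all leaf reads came from adaxial replicate 2. GRMZM2G157675 (chromosome 3, 223761142 to 223764256, plus strand) had 39.0 and 67.2 RPM in the center zone, against 0.0 and 0.6 RPM adaxially and 0.0 and 0.0 RPM abaxially, a ratio of 355 that became 990 without adaxial replicate 2. GRMZM2G357683 (chromosome 2, 216627773 to 216633622, minus strand) had 45.6 and 54.9 RPM in the center zone, against 0.1 and 1.0 RPM adaxially and 0.0 and 0.0 RPM abaxially, a ratio of 192 that became 938. GRMZM2G458401, at 29.0 and 35.5 RPM in the center zone, against 0.2 and 0.9 RPM adaxially and 0.0 and 0.2 RPM abaxially, moved in the same manner, with ratios of 96.1 and 235.

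The other members among the 12 most abundant had center zone means between 33.5 and 39.8 RPM. GRMZM2G464382 had 36.3 and 43.2 RPM there, against 0.6 and 0.4 RPM adaxially and 0.2 and 0.1 RPM abaxially. GRMZM2G378490 had 29.1 and 37.9 RPM, against 0.2 and 0.9 RPM adaxially and 0.4 and 0.1 RPM abaxially. The remaining 3, AC207628.4_FG005, GRMZM2G447056 and GRMZM2G038851, differed over 2-fold between center zone replicates and are given with them below. The 25 members that are not named by the rule had mean center zone levels of 12.5 to 30.9 RPM, and those mentioned further on were chosen after their values had been seen.

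A smaller share of the set than of other expressed center zone genes had a name entry. In a RefSeq-based table of gene names, 20 of 50 members (40.0%) had an entry, all protein coding, against 78.4% of genes at 10 RPM or more. A symbol was given to 8.0% of members, against 11.2%. Some genes left out by name meet both thresholds and carry a symbol, which lowers the share in the set. No deficit of symbols is therefore read from these shares. Gene models were shorter as well, with a median span of 2718 bp against 4523 bp and a range of 235 to 25228 bp, and 3 members (6.0%, against 2.24%) spanned under 1 kb. GRMZM2G411333, at 20.3 and 25.4 RPM in the center zone, shares its name entry with GRMZM2G015441, the gene before it on chromosome 5, which was listed at 0.2 and 0.3 RPM in the center zone and 0.0 RPM in leaf.

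Members were spread over all 10 chromosomes, with 28 on the plus strand and 22 on the minus strand. Chromosome 3 held 10 of them, where 10.5% of genes at 10 RPM or more lie, and chromosome 7 held 1, where 7.92% lie. A single pair of members were direct neighbours: GRMZM2G020016 and GRMZM2G020150 lie on the minus strand of chromosome 6, at 156385072 to 156386887 and 156397491 to 156399348, separated by 10603 bp. GRMZM2G020016 had 11.7 and 13.0 RPM in the center zone, against 0.3 and 0.9 RPM adaxially and 0.0 and 0.4 RPM abaxially. GRMZM2G020150 had 14.2 and 11.7 RPM, against 0.4 and 1.0 RPM adaxially and 0.3 and 0.4 RPM abaxially. The thresholds bound the levels of both neighbours as of any members, so nothing is read from their likeness. Whether reads of the pair could be shared was not tested.

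Most of the other genes that flank members did not pass for a higher center zone level. Of 98 adjacent genes outside the set, 48 (49.0%, against 45.4% of all genes) were expressed at a level that could be tested. Of these, 9 were higher (18.8%, against 10.9% of all tested genes) and 4 lower (8.33%, against 7.83%). Their median log2 fold change was 0.16, against 0.03 over all genes tested.

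In the leaf libraries 1 member had no reads. Reads were found in at least one leaf library for 49 of 50 genes, so that "on only in the center zone" holds for the thresholds and not for the presence of reads. The 4 leaf libraries together held 1437 counts of the set, with a median of 31.5 and a range of 0 to 56 counts per gene. All leaf levels were at most 0.5 RPM for 21 members, and the highest leaf level, as rounded to 1 decimal in the deposited values, was 1.0 RPM for 7. A count of 0 allows up to 0.112 to 0.196 RPM in a library (3 counts), and since amplified reads are not independent molecules this covers counting error only.

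GRMZM2G021909 (chromosome 6, 37025125 to 37027411, plus strand) was the one member without a leaf count, at 14.1 and 13.2 RPM in the center zone. Against 3 counts over the 4 leaf libraries together, its center zone level was at least 377-fold higher. For the members nearest to it the size of the ratio rests on single reads. GRMZM2G422045, at 10.9 and 17.6 RPM in the center zone, had 1 leaf count, in abaxial replicate 2, and a ratio to the pooled leaf level of 1179 (95% counting interval 212 to 46576). GRMZM2G155806, at 20.6 and 30.5 RPM in the center zone, had 3 leaf counts, all adaxial, and a ratio of 706 (241 to 3421).

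The remaining leaf reads were not spread evenly over the sides of the leaf. Both adaxial libraries lay above both abaxial libraries in 26 of 50 members, where this held for 16.6% of the 17993 genes tested, and the reverse held in 0 members, against 19.95% of genes. The adaxial mean was the higher in 40 members (80.0%, against 44.0% of tested genes), the lower in 9 and equal in 1. Median levels over the set were 0.39 and 0.43 RPM adaxially, against 0.13 and 0.12 RPM abaxially. The thresholds bound leaf levels from above but do not fix which side is the higher. All 50 members were read in the same 2 adaxial and 2 abaxial libraries, so they are not independent cases of this lean.

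Other center zone genes of low leaf level also leaned toward the adaxial side. Of the 322 other tested genes with at most 1.0 RPM in every leaf library, 68.0% had the higher mean adaxially and 21.7% had both adaxial above both abaxial libraries. Tested genes average 2 RPM or more in a domain, so all of these passed through the center zone. They resemble the set at lower levels, and genes low in every domain were not examined. The abaxial libraries were also the shallower, and 15 members had 0 counts in abaxial replicate 1 and 15 in replicate 2, against 4 and 3 in adaxial replicates 1 and 2. The 5 KNOX meristem markers summed to 17.5 and 13.6 RPM on the adaxial side, against 17.0 and 10.2 RPM on the abaxial side, so that the sides overlapped, while the 1 other meristem marker had 3.38 and 4.72 RPM against 0.456 and 0.435 RPM. The part of depth in the lean was not tested.

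**Figure D3:**
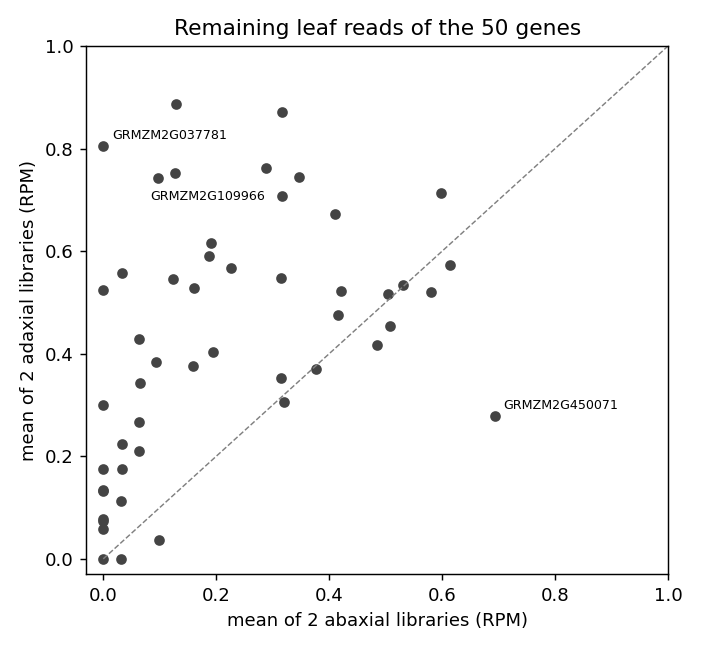
Mean RPM of the 2 adaxial libraries (vertical) against the mean of the 2 abaxial libraries (horizontal) for each of the 50 genes, with the line of equal levels dashed. Most points, 40 of 50, lie above the line, and several lie on the left edge, where the abaxial libraries held 0 counts.

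Single members did not pass the test between the leaf sides. At an adjusted p under 0.01 in edgeR, 0 of 50 members were called for adaxial against abaxial, where 13 of 17993 genes (0.0723%) were. DESeq2 called 1 member, where it called 195 of 17993 genes (1.08%). At an unadjusted p under 0.05, edgeR had 16 members, all higher adaxially, where 5.24% of genes passed, and DESeq2 had 18, where 6.17% of genes passed. Few counts stand behind each leaf value, and the depth limits which differences between the sides could be detected.

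The lowest adjusted p in edgeR, 0.0679, was shared by GRMZM2G109966 and GRMZM2G037781. GRMZM2G109966, the most abundant member in the center zone, had 38 adaxial counts and 3 abaxial counts (log2 fold change 2.93, SE 0.438). GRMZM2G037781 (chromosome 4, 35132610 to 35134468, plus strand), at 13.6 and 13.1 RPM in the center zone, had 1.0 and 0.6 RPM adaxially, against 0.0 and 0.0 RPM abaxially. With 41 adaxial counts and 0 abaxial counts, its adaxial level was at least 8.43-fold higher against 3 counts over the abaxial pair, and this was the gene that DESeq2 called (adjusted p 0.00689).

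In all, 10 members had 0 counts in both abaxial libraries, GRMZM2G021909 among them, and 2 had 0 counts in both adaxial ones. After GRMZM2G037781, the most adaxial counts among them were those of GRMZM2G357683, with 28 adaxial counts, 26 of them in replicate 2, and an adaxial level at least 5.49-fold above 3 counts over the abaxial pair. Against this lean went GRMZM2G450071, at 14.4 and 31.6 RPM in the center zone, with 0.4 and 0.1 RPM adaxially and 0.4 and 1.0 RPM abaxially, 14 against 22 counts (log2 fold change −1.28, SE 0.727, edgeR adjusted p 1.0). Its adaxial and abaxial libraries overlapped.

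Within the center zone, a larger share of members than of other expressed genes differed between the replicates, which is given as a description. Levels agreed within 2-fold for 45 of 50 members (90.0%), against 97.3% of genes at 10 RPM or more, and the median absolute log2 difference was 0.34, against 0.25. Replicate 2 was the higher in 31 members (62.0%, against 54.6% of genes) and replicate 1 in 19. Beyond 2-fold, 4 members were higher in replicate 2 and 1 in replicate 1. With 2 replicates, this spread is all the information on error that the center zone levels carry.

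The widest gap was that of GRMZM2G038851 (chromosome 2, 15245261 to 15247000, plus strand), with 18.5 RPM in center zone replicate 1 and 54.2 RPM in replicate 2, a 2.93-fold difference. Its leaf levels were 0.1 and 0.3 RPM adaxially and 0.1 and 0.1 RPM abaxially. AC207628.4_FG005, at 24.8 and 54.8 RPM in the center zone, against 0.8 and 0.3 RPM adaxially and 0.3 and 0.7 RPM abaxially, and GRMZM2G450071 differed by 2.21-fold and 2.20-fold. GRMZM2G447056, at 25.4 and 52.9 RPM, against 0.9 and 0.7 RPM adaxially and 0.3 and 0.2 RPM abaxially, differed by 2.08-fold.

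In the other direction, GRMZM2G107076 (chromosome 5) had 44.2 RPM in center zone replicate 1 and 19.9 RPM in replicate 2, against 0.6 and 0.2 RPM adaxially and 0.8 and 0.2 RPM abaxially. GRMZM2G095209, at 16.3 and 10.5 RPM in the center zone, against 0.9 and 0.6 RPM adaxially and 0.2 and 0.5 RPM abaxially, and GRMZM2G172297, at 25.4 and 17.7 RPM, against 0.6 and 0.9 RPM adaxially and 0.1 and 0.1 RPM abaxially, followed with smaller gaps. The summed YABBY and vasculature markers were higher in replicate 1 as well. Their part in these differences was not tested. GRMZM2G095209 overlaps GRMZM2G395114 on the opposite strand, at 5.1 and 1.4 RPM in the center zone, against 1.6 and 1.4 RPM adaxially and 0.1 and 0.1 RPM abaxially, and reads of such a pair may not be told apart.

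**Figure D4:**
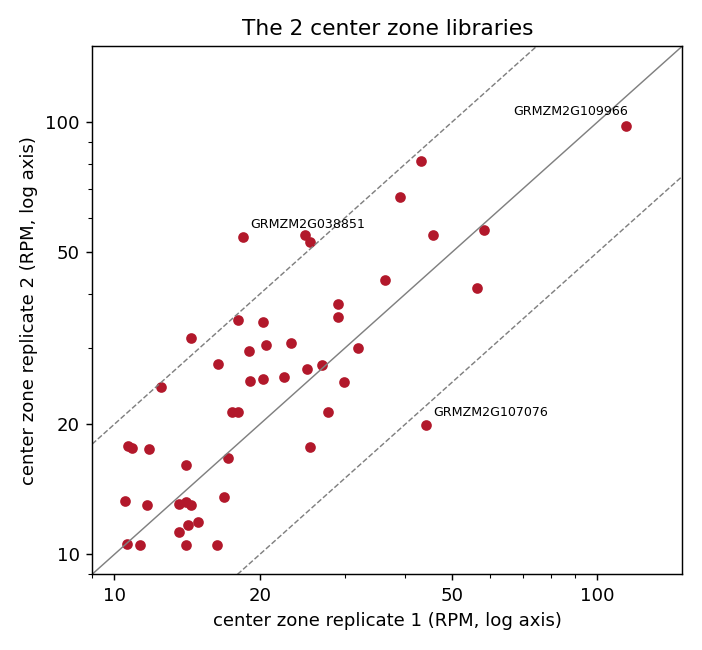
Center zone level of each of the 50 genes in replicate 2 (vertical) against replicate 1 (horizontal), in RPM on logarithmic axes, with the line of equal levels solid and 2-fold differences dashed. Of the 50 points, 45 lie within the dashed lines, 4 above them and 1, GRMZM2G107076, below.

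The edges of the set were narrow against the spread between replicates. Just inside the center zone threshold lay GRMZM2G063841 (10.5 and 13.3 RPM), GRMZM2G327208 (11.3 and 10.5 RPM) and GRMZM2G095209. Just outside it lay GRMZM5G892467 (12.2 and 9.8 RPM), knox8 and GRMZM2G149940 (9.9 and 19.3 RPM), all with at most 0.4 RPM in leaf. For each of these genes the distance to 10 RPM was smaller than the difference between its center zone replicates.

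At the leaf threshold, GRMZM2G450445 had 10.6 and 10.6 RPM in the center zone, against 0.0 and 1.0 RPM adaxially and 0.7 and 0.1 RPM abaxially. GRMZM2G079342, at 14.1 and 10.5 RPM, against 0.7 and 1.0 RPM adaxially and 0.2 and 0.1 RPM abaxially, and GRMZM2G450071 were also just inside. Just outside lay GRMZM2G119523, at 37.3 and 53.3 RPM, against 1.1 and 0.6 RPM adaxially and 0.0 and 0.6 RPM abaxially. GRMZM2G451506, at 35.0 and 35.3 RPM, and GRMZM2G471269, at 20.1 and 19.7 RPM, also reached 1.1 RPM in a single leaf library. These 3 excluded genes were more abundant in the center zone than many members.

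The count model describes the set only as the thresholds do. Between the center zone and the mean of both leaf sides, 49 of 50 members passed the edgeR threshold in the higher direction, where 10.9% of all tested genes did. Since the members were chosen by this contrast, nothing is read from that share.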

How the data were processed

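According to the study's methods, bases of low quality were trimmed, reads were aligned with GSNAP to B73 RefGen_V3, and uniquely mapped reads were counted per gene of annotation FGSv5b. The authors deposited these counts per library, together with RPM rounded to 1 decimal and scaled to all uniquely aligned reads. Ratios and means use unrounded RPM, recomputed as counts over the aligned reads that the deposited values imply. Samples were grouped by their labels, with 2 libraries per domain, described in the study as biological replicates.

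The 17993 genes that averaged 2 RPM or more in any domain were fitted with edgeR 4.0.16 in R 4.3.3 (TMM, quasi-likelihood F test, 3 groups, 6 libraries, Benjamini-Hochberg adjusted p under 0.01 over all genes tested). The common dispersion was 0.0933. The fit was tested on simulated data. Alternatives were DESeq2 1.42.0, other scalings, filters and thresholds, a replicate block and leaving out each library. Ratios against a leaf sum under 3 counts are lower bounds in the median. Named by rule are members with a symbol, the 12 most abundant, those at the thresholds, the 3 widest replicate gaps in each direction, neighbours, and up to 4 relatives per symbol stem by center zone level. In the KNOX list, lg4a, knox7 and knox8 were added with their values known, as was sfp2. The rule's part on protein identity was not run. A KNOX gene that the rule names is not reported here, though counts and sums over the family include it. Symbols came from a RefSeq gene table (Zm-B73-REFERENCE-NAM-5.0), in which 18775 of 39656 IDs matched. The members and lists were chosen with earlier results of these data known.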

Additional observations from a re-analysis of the deposited data

How the results depend on the processing

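The size of the set followed its thresholds: 105 genes at a center zone minimum of 5 RPM, 21 at 20 RPM, 21 at a leaf limit of 0.5 RPM and 96 at 2.0 RPM. Scaling to counted reads alone gave 46 genes (43 shared with the 50), TMM scaling 39 (39 shared), and leaving out a library 52 to 68. The median ratio of 79.7 moved within 70.6 to 109 when a library was left out, with 98.2 without center zone replicate 1 and 109 without adaxial replicate 2. Of 175 alternative ratios of 25 single genes, 120 stayed within 1 SD, 55 moved further, and the lowest was 16.4. Staying within 1 SD does not mean a small move. For GRMZM2G038851, whose center zone replicates differed most, the ratio of 266 ran from 135 to 437 and stayed within it. Ratios moved by over 1.5 times for 11 of these genes without adaxial replicate 2, for 4 without center zone replicate 2, and for 1 each without center zone replicate 1 and abaxial replicate 2.

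Over all genes, adaxial against abaxial had 13 calls, 44 at an adjusted p under 0.05, 195 in DESeq2, 49 without a filter and 0 to 66 when a library was left out, with 61 and 66 without center zone replicates 1 and 2, 1 without abaxial replicate 1 and 0 without any other leaf library. Members had 0 calls in every edgeR setting and 1 in DESeq2. Center zone against the mean of the leaf sides had 3370 calls, 6961 at an adjusted p under 0.05, 6151 in DESeq2 and 1136 to 4472 when a library was left out. These values without a library were 1136 and 1341 for abaxial replicates 1 and 2, 2024 and 1716 for adaxial replicates 1 and 2, and 2201 for center zone replicate 2. The cause was not tested. Both adaxial libraries lay above both abaxial ones in 26 members under both other scalings and in 30 to 35 without a leaf library, where 25.4% to 37.1% of all tested genes did and 2 to 6 members lay the reverse way, settings added after the data had been seen.

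Replicate numbers did not pair the center zone with leaf: deviations of same-numbered libraries correlated at −0.09 with the adaxial and −0.08 with the abaxial side. Between the leaf sides the correlation was 0.205, and whether those libraries shared apices or handling was not tested. With the replicate number as a block, 0 genes were called for adaxial against abaxial, 0 members were, and 2113 were called between center zone and leaf. Depth limits the leaf values, which rest on 0 to 56 counts per gene over 4 libraries.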
